A study of Homo sapiens with 8 samples.

Results

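The genes described here are HAMP, which encodes the iron hormone hepcidin, and 9 regulators that act upstream of it or in its control: TMPRSS6, HJV, HFE, TFR2, NEO1, BMP2, BMP4, BMP6 and ATOH8. They were chosen by name and found through their Ensembl gene IDs (HJV was formerly called HFE2), and all 10 were present among the 20897 genes of the files. PolyA RNA was sequenced from HepG2 cells, an established line from a human liver carcinoma that keeps many hepatocyte functions. All wells held 1% DMSO in medium with 1% serum and were treated for 18 h with DMSO alone (n = 3 libraries), with genistein (n = 3) or with BMP6 protein at 50 ng/ml (n = 2), and the libraries of a group are biological replicates by the series design. Genistein is an isoflavone of soy that inhibits tyrosine kinases, and its dose is given as 10 micromolar in the series design and as 10 mM in the treatment protocol, a conflict that the labels do not settle. The values are FPKM, in which fragment numbers are divided by the length of the transcript and the size of the library, so that levels can be compared between genes. Values of a group are given in the order of the replicate numbers. HepG2 is a tumour line grown without the endothelial and other cells that surround hepatocytes in liver.

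Hepcidin is secreted by hepatocytes and limits iron entry into plasma by causing the loss of the iron exporter ferroportin. Iron loading raises BMP6 and BMP2 in liver endothelial cells, and these ligands bind hepatocyte BMP receptors together with the coreceptor hemojuvelin (HJV), after which phosphorylated SMAD proteins enter the nucleus and activate HAMP. HFE and TFR2 sense transferrin-bound iron and strengthen that signal, neogenin (NEO1) binds hemojuvelin, the protease matriptase-2 (TMPRSS6) weakens the signal by cleaving hemojuvelin, and ATOH8 is a transcription factor that responds to BMP signals.

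Sequences upstream of the start were matched for 7 of the 10 genes in RefSeq's table (build GRCh38.p14), in 9 windows of 250 bases because BMP4 has several starts. They are not in the build of the expression files, which is hg18. The windows of HAMP and ATOH8, the genes that rose after BMP6, and the first window of BMP4 are shown 5′ to 3′ on the gene's strand. BMP4 was the most abundant among BMP2, BMP4 and BMP6. In turn, the windows lie at chr19:35282278-35282527 (plus strand), chr2:85753741-85753990 (plus strand) and chr14:53955051-53955300 (minus strand). Capitals mark matches to the motifs searched.
HAMP: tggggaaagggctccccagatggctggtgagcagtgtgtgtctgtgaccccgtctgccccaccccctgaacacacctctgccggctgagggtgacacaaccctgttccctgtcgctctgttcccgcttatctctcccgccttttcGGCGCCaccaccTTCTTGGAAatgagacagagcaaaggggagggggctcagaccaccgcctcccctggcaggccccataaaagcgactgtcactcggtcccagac
ATOH8: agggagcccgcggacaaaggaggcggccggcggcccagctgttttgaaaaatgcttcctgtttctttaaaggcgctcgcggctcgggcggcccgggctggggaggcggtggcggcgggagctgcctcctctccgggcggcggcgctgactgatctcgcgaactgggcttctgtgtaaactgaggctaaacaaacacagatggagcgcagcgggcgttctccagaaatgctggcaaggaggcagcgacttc
BMP4: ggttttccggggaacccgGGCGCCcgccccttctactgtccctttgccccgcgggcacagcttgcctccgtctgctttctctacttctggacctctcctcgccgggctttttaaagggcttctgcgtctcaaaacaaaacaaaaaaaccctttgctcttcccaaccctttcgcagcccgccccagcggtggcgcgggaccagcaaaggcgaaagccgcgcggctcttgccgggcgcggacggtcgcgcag
The motifs were GGCGCC, the letters of the BMP responsive element, TTCNNNGAA, a STAT site, GTCTAGAC, a palindromic SMAD site, and CACGTG, an E-box. Each was searched on both strands, and the matches in the window of HAMP do not overlap. In HAMP, GGCGCC lies 105 to 100 bases before the RefSeq start, and TTCTTGGAA, a match to the STAT motif, lies 93 to 85 bases before it. GGCGCC was found in 2 of the 9 windows (HAMP and the first of BMP4) and in 16.4% of all 35116 windows of the same length. TTCNNNGAA was found in 2 of 9 (HAMP and HJV) and in 6.57% of all, CACGTG in 1 of 9 (another start of BMP4) and in 6.34%, and GTCTAGAC in 0 of 9 and in 0.182%. The window of ATOH8 holds none of these motifs. A match describes these letters only and is not evidence of binding.

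All 9 hepatocyte marker genes, among them ALB and AFP, were above 0 in every library, with summed levels of 176304 to 220814 FPKM in DMSO, 132461 to 213797 after genistein and 204107 to 224406 after BMP6. Of 8 endothelial marker genes in the files, 5 were listed at 0 throughout (STAB2, LYVE1, KDR, CLEC4G and TEK), and the sum lay between 0.232 and 3.80 FPKM in all libraries. Of 8 stellate cell and fibroblast markers 5 were at 0 throughout (DCN, LRAT, COL1A1, COL3A1 and LUM), as were 5 of 8 macrophage markers (CD163, MARCO, PTPRC, CSF1R and ITGAM). The summed stellate list, nearly all of it ACTA2, was 254 to 265 FPKM in DMSO, 139 to 179 after genistein and 149 to 261 after BMP6. The macrophage sum, mostly LYZ, was 3250 to 4859, 1242 to 1955 and 1562 to 2401 FPKM in the same order. The hepatocyte gene TTR and LYZ were lower after genistein than in DMSO (log2 -2.64 and -1.58, adjusted p = 0.0193 and 0.0448) and CD68 was higher (1.18, adjusted p = 0.0406). Their part in the results below was not tested. BMP6 1 correlated more with genistein 3 (r = 0.889 across tested genes) than with BMP6 2 (0.847), and DMSO 1 and genistein 2 had more genes listed at 0 (9806 and 10364) than the other libraries (8347 to 8997). Calls are therefore also given without DMSO 1, genistein 2 and BMP6 1, named below as the 3 libraries.

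Of the 10 genes, 8 passed the filter of at least 1 FPKM in at least 2 libraries and were tested. ATOH8 passed through the BMP6 libraries alone and HAMP through the treated libraries alone, so a difference for these genes was built into their entry. BMP2 and HJV were listed at 0 FPKM in all 8 libraries, with an OK status in each. An exact 0 in these files can be a failed estimate, so these 2 genes are described only as listed at 0. The same doubt applies to HAMP in DMSO and to ATOH8 in DMSO and genistein, where the status was also OK. Their differences from DMSO rest on these values. Differences are on the log2(FPKM + 1) scale with limma's SE, and p-values are limma's, adjusted by Benjamini-Hochberg over all 12661 genes tested.

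**Figure D1:**
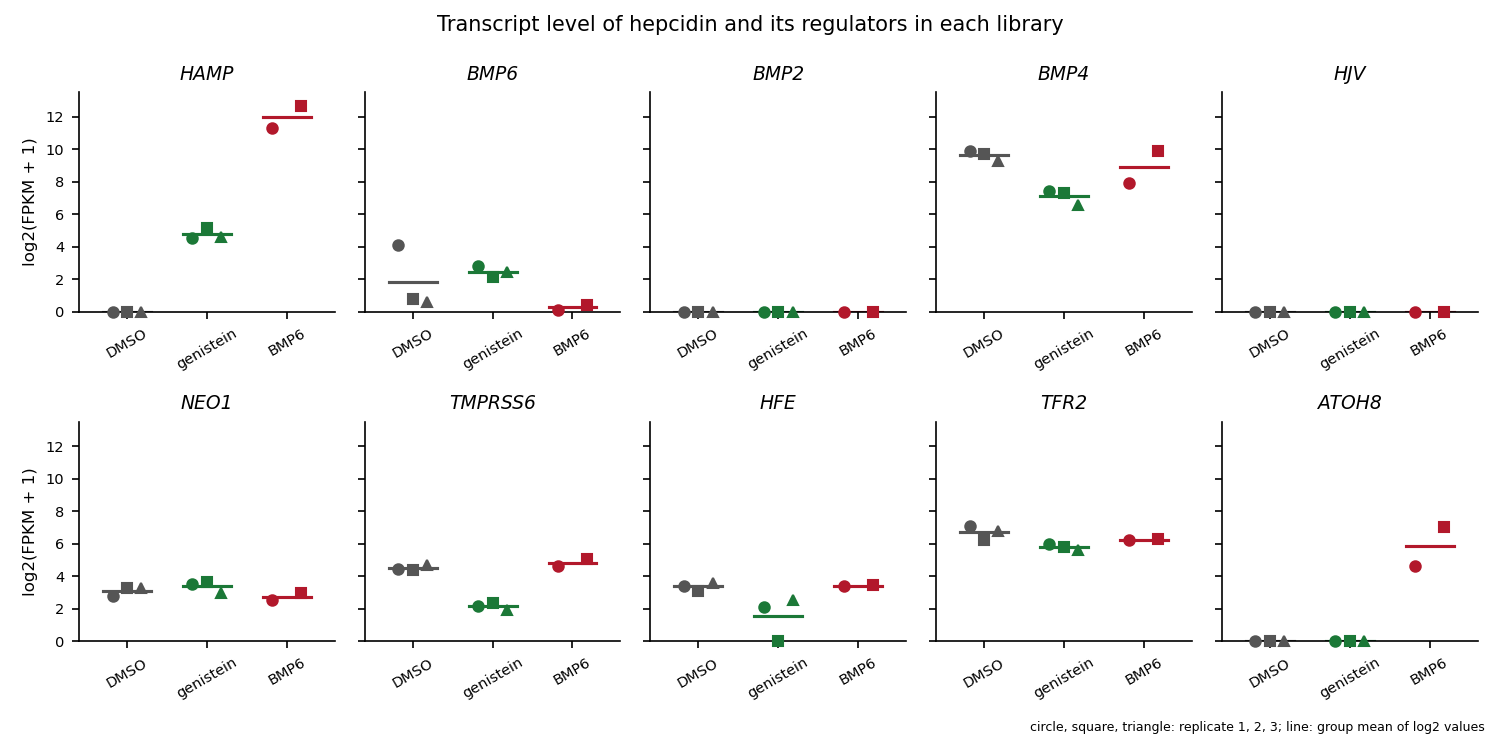
Level of each of the 10 genes in each library, as log2(FPKM + 1), for DMSO (grey), genistein (green) and BMP6 (red), with the group mean of the log2 values as a line. HAMP is at 0 in DMSO and highest after BMP6, TMPRSS6 is low in the 3 genistein libraries only, and BMP2 and HJV are at 0 throughout.

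After genistein, 1 of the 8 tested genes was higher than in DMSO (HAMP) and 2 were lower (TMPRSS6 and BMP4), and 5 did not pass the threshold. In the same comparison 6.11% of all genes tested were higher and 5.96% lower. After BMP6, 2 genes were higher than in DMSO (HAMP and ATOH8) and 0 were lower, against 0.34% of all genes higher and 0.498% lower. Between the treatments, 3 genes were lower after genistein than after BMP6 (HAMP, TMPRSS6 and ATOH8) and 0 were higher, against 0.75% and 0.64% of all genes in turn. The calls of HAMP and ATOH8 against DMSO, and of ATOH8 between the treatments, were built into their entry. They support nothing about the group, here or in the counts and medians that follow. Apart from these, TMPRSS6 and BMP4 were called after genistein, and HAMP and TMPRSS6 between the treatments. At an unadjusted limma p under 0.05 stood 5, 2 and 5 of the 8 genes in the 3 comparisons, against 30%, 18.9% and 14.7% of all genes. The groups did not overlap for 5, 3 and 7 of the 8 genes in these 3 comparisons, against 43.9%, 33.3% and 28.9% of all genes tested. The median log2 difference of the 8 genes was -0.45, -0.16 and -1.84, and that of all genes tested was 0.05, -0.03 and 0.12. Both comparisons with DMSO use the same DMSO libraries.

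**Figure D2:**
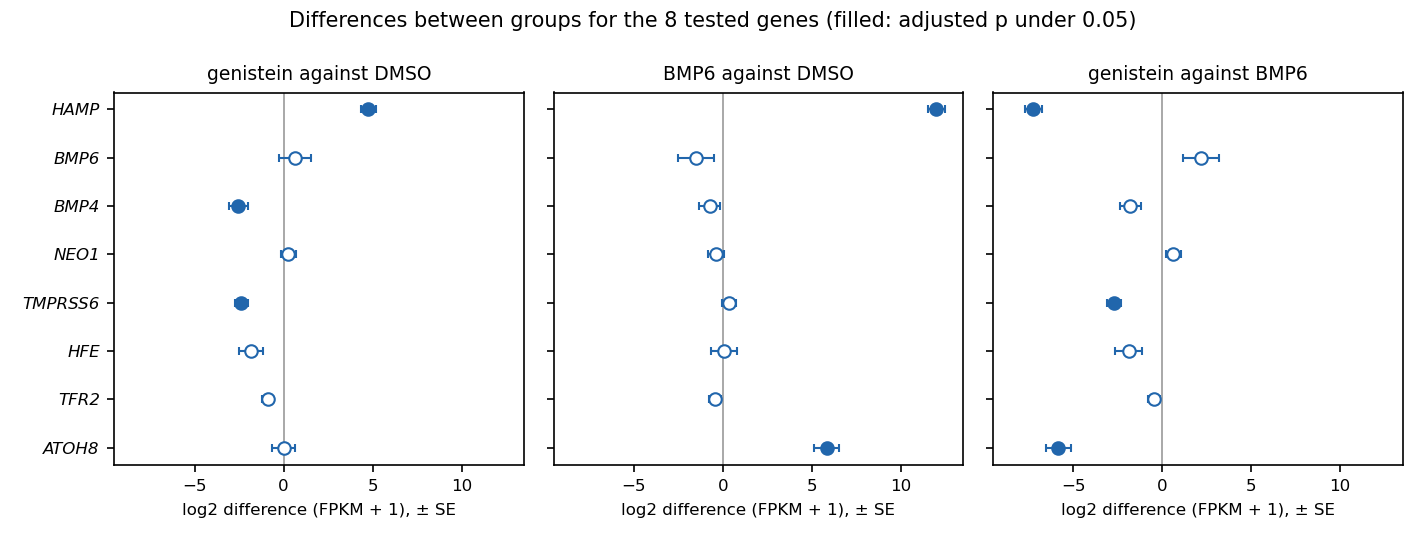
Log2 difference on the log2(FPKM + 1) scale with its SE for the 8 tested genes in the 3 comparisons, with filled points for an adjusted p under 0.05. HAMP is 4.75 above DMSO after genistein and 11.99 after BMP6, and TMPRSS6 differs from DMSO by -2.37 after genistein and by 0.32 after BMP6.

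HAMP is annotated as ENSG00000105697 on chromosome 19 of hg18, from 40465250 to 40467886. It was listed at 0 in the DMSO libraries. The genistein libraries held 22.2, 34.4 and 22.8 FPKM. The BMP6 pair held 2563 and 6425 FPKM. No group overlapped another, and the BMP6 libraries differed from each other by 2.51-fold. Among all 20897 genes ordered by FPKM, HAMP held rank 82 in BMP6 1 and rank 72 in BMP6 2, and ranks 8232, 6434 and 7763 in the genistein libraries. Mean HAMP was 26.5 ± 6.86 FPKM after genistein (SD, n = 3) and 4494 ± 2731 FPKM after BMP6 (SD, n = 2), a ratio of 170 between the means. No fold is given against DMSO, where HAMP was listed at 0. The log2 difference was 4.75 ± 0.42 for genistein against DMSO (adjusted p = 0.00169), 11.99 ± 0.46 for BMP6 against DMSO (adjusted p = 4.6e-05) and -7.24 ± 0.46 for genistein against BMP6 (adjusted p = 0.00086). The first moved to 8.02 with a pseudocount of 0.1 and to 2.63 with 5, and the adjusted p stayed at or below 0.0185 in all alternatives of that comparison. Without DMSO 1, genistein 2 and BMP6 1 the 3 differences were 4.56, 12.65 and -8.09 (adjusted p = 0.00928, 0.00284 and 0.0121). Exact two-sided permutation tests gave p = 0.1 (3 against 3) and p = 0.2 (3 against 2), the smallest these designs allow. In bulk samples a larger share of responding cells and more RNA per cell cannot be told apart.

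By the profile of log2 levels over the 8 libraries, each divided by its own highest value, the 5 tested genes closest to HAMP were HR, EHD2, TMEM145, ZC3H12D and TMEM88B. The mean absolute distance to HAMP was 0.075 for HR and 0.11 for TMEM88B, where 0 is an identical profile. HR, the gene of the hairless corepressor, was listed at 0 in DMSO, reached 0.731, 1.11 and 0.681 FPKM in the genistein libraries and stood at 15.7 and 15.2 FPKM in the BMP6 pair. All 5 were listed at 0 in the 3 DMSO libraries, and their highest value in any genistein library was 3.28 FPKM, that of TMEM88B. This likeness is a description over 8 libraries that share 3 treatments.

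Among BMP2, BMP4 and BMP6, BMP4 was the most abundant in each library. BMP4 (ENSG00000125378; hg18, chromosome 14, 53486204 to 53493279) encodes a BMP ligand of wide use in development. It stood at 957, 855 and 629 FPKM in the DMSO libraries and at 173, 156 and 95.6 FPKM in the genistein libraries. The genistein libraries all lay below the DMSO libraries, and the mean fell from 813 ± 168 to 142 ± 40.8 FPKM (SD, n = 3 each), 5.74-fold lower on the FPKM scale. The log2 difference was -2.54 ± 0.52 (adjusted p = 0.0217). The call was lost without DMSO 1, 2 or 3 or genistein 1, 2 or 3 (adjusted p = 0.052 to 0.092), and held without the 3 libraries (adjusted p = 0.0239). In the BMP6 pair BMP4 stood at 239 and 953 FPKM, 1 below and 1 within the range of DMSO. The BMP6 difference from DMSO was -0.75 ± 0.59 (adjusted p = 0.502), and it was -1.74 without BMP6 2 (adjusted p = 0.0446) and 0.25 without BMP6 1. Genistein against BMP6 gave -1.79 ± 0.59 for BMP4 (adjusted p = 0.205), and it was -2.79 without BMP6 1 (adjusted p = 0.0478), -0.79 without BMP6 2 (adjusted p = 0.301) and -2.88 without the 3 libraries (adjusted p = 0.0506). This difference thus depended on which BMP6 library was kept.

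The BMP6 gene (ENSG00000153162; hg18, chromosome 6, 7672010 to 7826960) encodes the ligand that was also added as protein, and its transcript was low. It stood at 15.9, 0.678 and 0.475 FPKM in the DMSO libraries, at 5.95, 3.33 and 4.53 FPKM in the genistein libraries, and at 0.09 and 0.341 FPKM in the BMP6 pair. DMSO 1 lay above all other libraries, and both BMP6 libraries lay below all others. The log2 difference was 0.67 ± 0.90 for genistein against DMSO (adjusted p = 0.651), -1.52 ± 1.01 for BMP6 against DMSO (adjusted p = 0.433) and 2.19 ± 1.01 for genistein against BMP6 (adjusted p = 0.363). Without DMSO 1 the genistein difference was 1.81 ± 0.38 (adjusted p = 0.0405), so that library decided the call, and the BMP6 difference from DMSO was -0.38 (adjusted p = 0.67). Without the 3 libraries genistein passed against DMSO (1.98, adjusted p = 0.0195) and against BMP6 (2.21, adjusted p = 0.041), and BMP6 against DMSO was -0.23 (adjusted p = 0.739). BMP4 exceeded the BMP6 transcript by 60.3-fold in DMSO 1, by 1260-fold and 1323-fold in DMSO 2 and 3, by 29.2-fold, 46.8-fold and 21.1-fold in the genistein libraries, and by 2649-fold and 2799-fold in the BMP6 pair. BMP2 (ENSG00000125845; hg18, chromosome 20, 6696745 to 6708910), the gene of the other endothelial ligand, was listed at 0 throughout.

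The 5 tested genes with profiles closest to BMP4 were HSD3B7, a bile acid synthesis enzyme, GRK5, a receptor kinase, LMNB1, which encodes lamin B1, LIPC, which encodes hepatic lipase, and NPM2, at distances of 0.0202 to 0.0271. HSD3B7, the closest, stood at 120 to 193 FPKM in DMSO, 37.9 to 51.8 after genistein and 69.3 and 154 in the BMP6 pair, and in LIPC and LMNB1 too BMP6 1 lay below BMP6 2.

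Of the coreceptor genes, HJV (ENSG00000168509; hg18, chromosome 1, 144124628 to 144128902) was listed at 0 in all libraries. NEO1 (ENSG00000067141; hg18, chromosome 15, 71131928 to 71384596) stood at 5.89, 8.53 and 8.84 FPKM in the DMSO libraries, at 10.6, 11.4 and 6.84 FPKM in the genistein libraries, and at 4.66 and 6.93 FPKM in the BMP6 pair. All groups overlapped, and no comparison passed: the log2 differences were 0.27 ± 0.40 for genistein and -0.37 ± 0.45 for BMP6 against DMSO (adjusted p = 0.683 and 0.677). RGMB, a relative of hemojuvelin, stood at 1.61 FPKM in BMP6 1 and at 5.47 to 11.2 FPKM in the others and did not pass either, and RGMA was listed at 0 in all.

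TMPRSS6 (ENSG00000187045; hg18, chromosome 22, 35791422 to 35835549) stood at 21.1, 19.8 and 24.2 FPKM in the DMSO libraries. Its levels were 3.49, 4.04 and 2.75 FPKM in the genistein libraries and 23.2 and 32 FPKM in the BMP6 pair. The genistein libraries lay below all 5 other libraries, and the BMP6 libraries overlapped the DMSO libraries. After genistein mean TMPRSS6 fell, from 21.7 ± 2.29 to 3.42 ± 0.649 FPKM (SD, n = 3 each), 6.34-fold on the FPKM scale, with a log2 difference of -2.37 ± 0.35 (adjusted p = 0.00823; at most 0.0493 in all alternatives, and 0.0134 without the 3 libraries). Genistein against BMP6 gave a log2 difference of -2.69 ± 0.39 (adjusted p = 0.0205), a test of the difference between the treatments. That second call was lost without DMSO 2 or 3 or genistein 1 or 3 (adjusted p = 0.0525 to 0.103) and with only the 2 groups compared (0.0832), and held without the 3 libraries (adjusted p = 0.0213). BMP6 against DMSO gave 0.32 ± 0.39 (adjusted p = 0.679). The exact two-sided permutation test of genistein against DMSO gave p = 0.1, the smallest possible with 3 against 3.

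The 5 profiles closest to TMPRSS6 were those of GPER1, the gene of a membrane receptor that binds oestrogen, SNX22, a sorting nexin, the pseudogene PDZK1P1, LRP4, a receptor of the LDL receptor family, and LSS, the lanosterol synthase, at distances of 0.0537 to 0.0653. GPER1 stood at 133, 78.8 and 93.7 FPKM in the DMSO libraries, at 14.7, 11.5 and 8.81 FPKM in the genistein libraries, and at 86.4 and 128 FPKM in the BMP6 pair. PDZK1P1 is uncertain because reads could be shared with the gene it copies.

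The iron sensor genes HFE and TFR2 were lower in every genistein library than in any DMSO library, but neither passed. HFE (ENSG00000010704; hg18, chromosome 6, 26195488 to 26204804), which encodes an MHC class I-like protein that binds the transferrin receptor, stood at 9.54, 7.67 and 11 FPKM in the DMSO libraries. Its levels were 3.23, 0 and 4.71 FPKM in the genistein libraries and 9.39 and 10 FPKM in the BMP6 pair. The log2 difference of genistein from DMSO was -1.83 ± 0.65 (adjusted p = 0.107), and -1.07 ± 0.395 without genistein 2, the library listed at 0 (adjusted p = 0.158). Without the 3 libraries it was -1.05 (adjusted p = 0.0816). TFR2 (ENSG00000106327; hg18, chromosome 7, 100055975 to 100077109), the gene of transferrin receptor 2, stood at 135, 75.3 and 107 FPKM in the DMSO libraries. Its levels were 63.5, 53.9 and 47.4 FPKM in the genistein libraries and 74 and 76.5 FPKM in the BMP6 pair. The log2 difference was -0.90 ± 0.31 for genistein (adjusted p = 0.0992) and -0.45 ± 0.35 for BMP6 against DMSO (adjusted p = 0.502), and without the 3 libraries these were -0.70 and -0.23 (adjusted p = 0.177 and 0.774). For HFE, BMP6 against DMSO gave 0.05 ± 0.73 (adjusted p = 0.979).

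ATOH8 (ENSG00000168874; hg18, chromosome 2, 85834528 to 85868696) was listed at 0 in all 3 DMSO and all 3 genistein libraries. It stood at 23.8 and 130 FPKM in the BMP6 pair, which differed by 5.44-fold. The 2 BMP6 libraries were thus apart from the other 6. ATOH8 rose after BMP6 by 5.83 ± 0.70 on the log2 scale (adjusted p = 0.018), and genistein against BMP6 gave -5.83 ± 0.70 (adjusted p = 0.00923). The rise lost its call without DMSO 2, DMSO 3 or genistein 3 (adjusted p = 0.118, 0.057 and 0.0534), with a mean of at least 5 FPKM (0.0737) and with only the 2 groups compared (0.0745). The difference between the treatments lost its call under the last 2 settings (0.0508 and 0.0875). Without the 3 libraries both differences passed (log2 7.03 and -7.03, adjusted p = 0.012 and 0.0146). It held without BMP6 1 (log2 7.03, adjusted p = 0.011) and without BMP6 2 (log2 4.64, adjusted p = 0.0239), where the lone BMP6 library was assumed to vary like the other groups. With pseudocounts of 0.1 and 5 it was 9.12 and 3.64.

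In DMSO the order of mean levels was BMP4 (813 FPKM), TFR2 (106), TMPRSS6 (21.7), HFE (9.39), NEO1 (7.75) and the BMP6 transcript (5.67), with HAMP, BMP2, HJV and ATOH8 listed at 0. The libraries of HFE, NEO1 and BMP6 overlapped with their neighbours in that order, and BMP4, TFR2 and TMPRSS6 were separate. After genistein the order was BMP4 (142 FPKM), TFR2 (54.9), HAMP (26.5), NEO1 (9.63), BMP6 (4.60), TMPRSS6 (3.42) and HFE (2.65), with the last 3 overlapping in neighbouring pairs. After BMP6, HAMP (4494 FPKM) stood above BMP4 (596), ATOH8 (76.8), TFR2 (75.2), TMPRSS6 (27.6), HFE (9.70), NEO1 (5.80) and the BMP6 transcript (0.215), and ATOH8 and TFR2 overlapped. TMPRSS6 thus took place 3 in DMSO, place 6 after genistein and place 5 after BMP6, where its mean was no lower than in DMSO. HAMP entered the order above it after both treatments, and ATOH8 after BMP6, so these places do not follow its own level alone.

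Beyond these genes, 80 others of the hepcidin pathway were listed, of which 78 were in the files, 20 were at 0 throughout and 57 were tested. After genistein 6 rose and 1 fell, after BMP6 2 rose and 1 fell, and between the treatments 1 was higher and 1 lower after genistein. The shares of all genes called, in either direction, were 12.1%, 0.837% and 1.39%. The counts of calls in each list below are to be read beside these shares. Their median log2 difference was 0.17, 0.22 and -0.01, beside 0.05, -0.03 and 0.12 for all genes tested. HEY1, ID4 and SOCS3 were listed at 0 in DMSO and passed the filter through treated libraries alone, so that, as for HAMP and ATOH8, their difference from DMSO was built into their entry and supports nothing about their lists. Of the calls below, those of FST and of the fall of FBXL5 were lost without the 3 libraries (adjusted p = 0.0506 and 0.0643), and the others held.

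**Figure D3:**
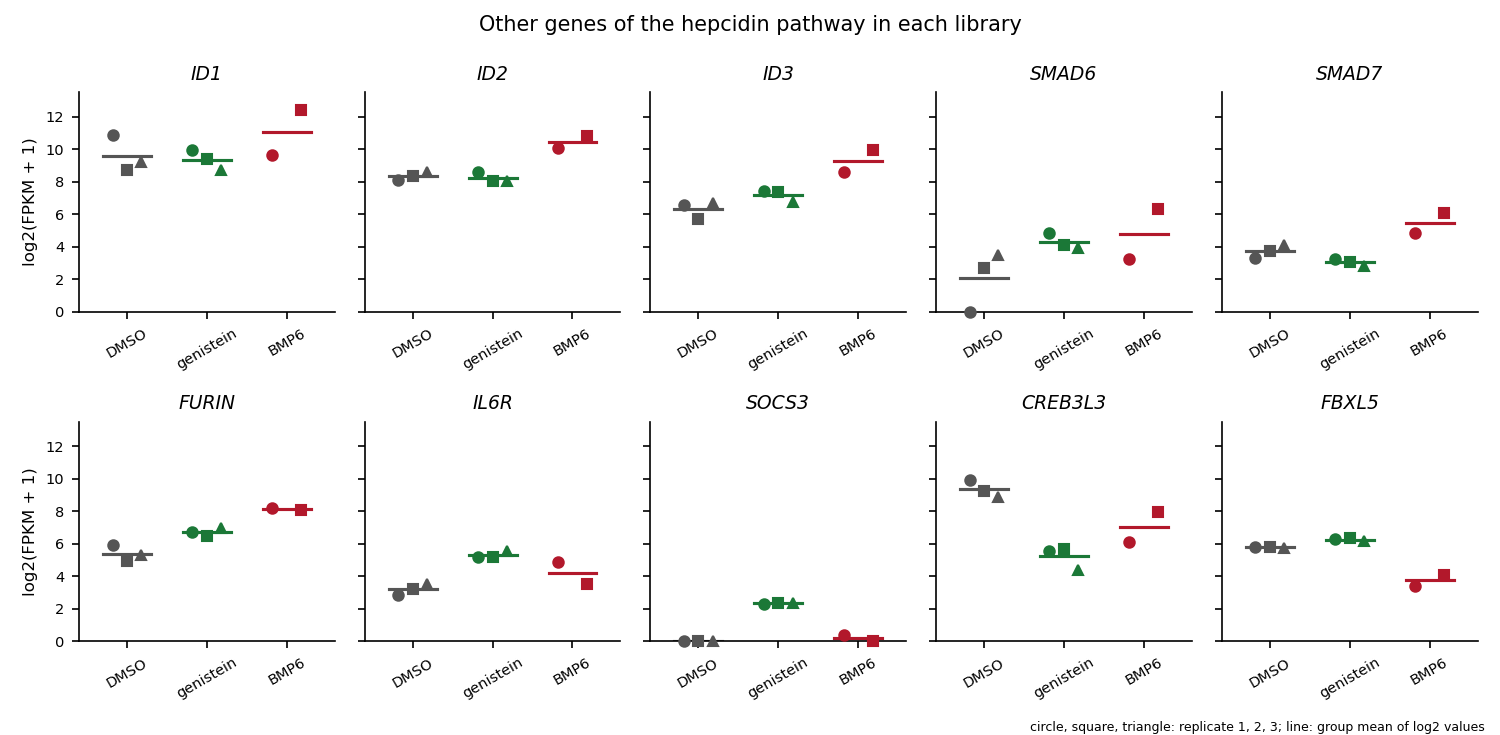
Level of 10 other pathway genes in each library, as log2(FPKM + 1), with the group mean of the log2 values as a line. ID2 and ID3 are higher in both BMP6 libraries than in any other, and FBXL5 is low in both BMP6 libraries. CREB3L3 is lowest in the 3 genistein libraries and also lower in both BMP6 libraries than in DMSO.

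Of 9 tested SMAD target genes, 1 rose after BMP6 (ID3) and 0 fell, with 7 at an unadjusted limma p under 0.05 (18.9% of all genes), and the median log2 difference was 1.74. The 7 and the median include ID4 and HEY1, whose difference from DMSO was built into their entry. Among these 7, MSX1, a homeobox gene, lay below DMSO: it stood at 327, 436 and 315 FPKM in DMSO, at 84.5, 72.2 and 28.6 after genistein and at 21.6 and 179 in the BMP6 pair. Neither difference of MSX1 from DMSO passed (log2 -2.65 for genistein and -2.48 for BMP6, adjusted p = 0.0535 and 0.177). ID3, an inhibitor of differentiation, stood at 94, 50.3 and 104 FPKM in the DMSO libraries, at 169, 164 and 106 in the genistein libraries, and at 394 and 1012 in the BMP6 pair. Its log2 difference after BMP6 was 2.99 ± 0.51 (adjusted p = 0.0467), a call that was lost without any single library other than BMP6 2 (adjusted p = 0.059 to 0.194), with a pseudocount of 0.1 (0.0558), with a mean of at least 5 FPKM (0.0724) and with only the 2 groups compared (0.16). ID2 stood at 275 to 385 FPKM in DMSO, at 258 to 384 after genistein and at 1064 and 1810 in the BMP6 pair. ID2 was lower after genistein than after BMP6 by a log2 difference of -2.22 ± 0.38 (adjusted p = 0.0338). This call was lost without DMSO 2, DMSO 3 or any genistein library (adjusted p = 0.0728 to 0.157) and with only the 2 groups compared (0.128). Against DMSO, ID2 differed by 2.08 after BMP6 (adjusted p = 0.0566) and by -0.14 after genistein (adjusted p = 0.807), and neither passed. After genistein 1 of the 9 rose and 0 fell, with 2 at an unadjusted limma p under 0.05 (30% of all genes). The gene called was HEY1, whose difference from DMSO was built into its entry. HEY1, a repressor, was listed at 0 in DMSO and the genistein libraries held 10.7, 7.81 and 10.3 FPKM (log2 difference 3.40 ± 0.39, adjusted p = 0.00457). The BMP6 pair of HEY1 held 4.14 and 4.89 FPKM, above DMSO, with a log2 difference of 2.46 that did not pass (adjusted p = 0.0531). ID1 stood at 426 to 1912 FPKM in DMSO, 421 to 993 after genistein and 804 and 5603 in the BMP6 pair, and did not pass. The inhibitory SMAD7 stood at 8.93 to 16.4 FPKM in DMSO, 5.87 to 8.65 after genistein and 27.7 and 65.7 in the BMP6 pair, and did not pass in any comparison.

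None of the 5 tested BMP receptor genes and none of the 6 SMAD genes passed in any comparison by limma. In the 3 comparisons 12.1%, 0.837% and 1.39% of all genes were called, so lists this short could hold no call without differing from other genes. At an unadjusted p under 0.05 there were 2, 0 and 0 receptor genes and 0, 3 and 2 SMAD genes in the 3 comparisons, against 30%, 18.9% and 14.7% of all genes. SMAD6 and SMAD7 are also among the SMAD target genes above, so they count in both lists. ACVR1, which encodes a type I receptor of the BMP signal to HAMP, had means of 18.8 FPKM in DMSO, 63.8 after genistein and 47.2 after BMP6 (log2 difference 1.66 for genistein, adjusted p = 0.0579). Of 6 tested extracellular antagonists, FST, the gene of follistatin, rose after genistein. Its mean was 465 ± 217 FPKM in DMSO and 1732 ± 364 FPKM after genistein (SD, n = 3 each), a log2 difference of 2.00 ± 0.48 (adjusted p = 0.034). CHRD, the gene of chordin, which binds BMP ligands, stood at 914, 624 and 719 FPKM in the DMSO libraries, at 220, 162 and 113 in the genistein libraries, and at 30.3 and 192 in the BMP6 pair. Both treated groups of CHRD lay below DMSO, and neither difference passed (log2 -2.21 and -3.26, adjusted p = 0.0545 and 0.0757). Among 3 other tested ligands, GDF15, a stress cytokine of the same superfamily, rose after genistein by 5.48 ± 0.91 on the log2 scale (adjusted p = 0.0114). The call of FST was lost without DMSO 1, DMSO 2 or any genistein library (adjusted p = 0.0688 to 0.108), and that of GDF15 without DMSO 2 (0.0575).

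A wider list held relatives and processing enzymes of hemojuvelin together with genes such as TFRC, TF, B2M and FKBP1A. Of its 10 tested genes, FURIN alone was called, after genistein and after BMP6. Of all genes, 12.1% were called after genistein and 0.837% after BMP6. FURIN encodes a convertase that releases soluble hemojuvelin. It stood at 59.7, 29.6 and 37.8 FPKM in the DMSO libraries, at 103, 86.6 and 123 in the genistein libraries, and at 299 and 269.6 in the BMP6 pair. The 3 groups did not overlap, and FURIN rose by 1.32 ± 0.34 after genistein (adjusted p = 0.0404) and by 2.78 ± 0.37 after BMP6 (adjusted p = 0.0245) on the log2 scale. The genistein call was lost without DMSO 2, DMSO 3 or any genistein library (adjusted p = 0.0857 to 0.154), with median-of-ratios scaling (0.0816), with quantile normalization (0.0676) and with no trend (0.0549). The BMP6 call was lost without DMSO 2, DMSO 3, genistein 1, genistein 3 or BMP6 1 (adjusted p = 0.0558 to 0.121) and with only the 2 groups compared (0.0928). Genistein against BMP6 gave -1.45 for FURIN (adjusted p = 0.122). TFRC, the transferrin receptor that HFE binds, had means of 75.7, 194 and 539.7 FPKM in DMSO, genistein and BMP6 and did not pass.

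Of 6 tested genes of the interleukin 6 and STAT3 input, which activates HAMP in inflammation, 2 rose after genistein, against 6.11% of all genes. These were IL6R and SOCS3, and the difference of SOCS3 was built into its entry. After BMP6 0 were called, and 2 had an unadjusted limma p under 0.05, against 18.9% of all genes. These 2 went opposite ways (log2 2.17 for IL6ST and -2.20 for JAK2). IL6R, the interleukin 6 receptor, stood at 6.30, 8.27 and 10.7 FPKM in the DMSO libraries, at 34.9, 35.2 and 45.3 in the genistein libraries, and at 27.9 and 10.6 in the BMP6 pair. Its log2 difference after genistein was 2.09 ± 0.43 (adjusted p = 0.0224). SOCS3, a STAT3 target and feedback inhibitor, was listed at 0 in DMSO, reached 3.83, 4.13 and 4.06 FPKM in the genistein libraries and stood at 0.306 and 0 in the BMP6 pair (adjusted p = 0.015). The IL6R call was lost without any DMSO or genistein library (adjusted p = 0.052 to 0.0971) and that of SOCS3 without DMSO 2, genistein 1 or genistein 3 (adjusted p = 0.0506 to 0.0764). IL6 itself was listed at 0 in all libraries, and STAT3 had means of 123, 145 and 95 FPKM in DMSO, genistein and BMP6 and did not pass.

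Of 9 tested transcription factors and repressors of HAMP, CREB3L3, a liver factor that activates HAMP under endoplasmic reticulum stress, fell after genistein. It stood at 986, 619 and 465 FPKM in the DMSO libraries, at 45.7, 50.7 and 20.3 in the genistein libraries, and at 68.1 and 251 in the BMP6 pair. The log2 difference of genistein from DMSO was -4.15 ± 0.57 (adjusted p = 0.00692, and at most 0.0434 in all alternatives). Both BMP6 libraries also lay below all DMSO libraries, and that difference did not pass (log2 -2.32, adjusted p = 0.131). HNF4A, a hepatocyte factor, had means of 243, 274 and 286 FPKM in DMSO, genistein and BMP6 and did not pass. Of 5 tested genes of iron export and iron sensing, FBXL5, an iron-sensing subunit of a ubiquitin ligase, fell after BMP6 from 53.6 ± 1.78 (SD, n = 3) to 12.8 FPKM, with 9.60 and 16 FPKM in the BMP6 pair. The log2 difference was -2.02 ± 0.34 (adjusted p = 0.044), and FBXL5 was higher after genistein than after BMP6 by 2.51 ± 0.34 (adjusted p = 0.0151). The fall was lost without any single library except BMP6 2 (adjusted p = 0.0659 to 0.208), with a mean of at least 5 FPKM (0.0564) and with only the 2 groups compared (0.157). The second call was lost without DMSO 2 or any genistein library (adjusted p = 0.0519 to 0.0778) and with only the 2 groups compared (0.0875). SLC40A1, the gene of ferroportin, had means of 45.2, 26.7 and 15.9 FPKM in DMSO, genistein and BMP6 and did not pass.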

How the data were processed

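PolyA RNA of 8 HepG2 libraries was sequenced on an Illumina instrument, and the sample titles give each library's group and number. The authors deposited 1 FPKM value for each Ensembl gene in each library, as the column names show. The submitters' processing notes name TopHat 1.1.0, Bowtie, Cufflinks 1.0.3, Cuffdiff and hg18, with settings and scaling not given in the sources used here. Summed over genes, a library held 1704599 to 3105197 FPKM. Depth is unknown: the 1000 lowest values above 0 of a library correlated with gene length at a Spearman rho of -0.094 to 0.0898, so no whole reads were recovered and no count model or detection limit was used.

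Symbols were matched through a table of gene names (19069 of 20897 IDs); CEBPA, GDF2 and PECAM1 were not matched. Coordinates are those of the files, with starts converted to count from 1, since 270 of 316 olfactory receptor genes then spanned a multiple of 3 bases. Genes that reached 1 FPKM in 2 or more libraries entered 1 limma fit (version 3.58.1, R 4.3.3) of log2(FPKM + 1) over all 8 libraries with an intensity trend, tested on simulated data; the threshold was an adjusted p of 0.05. Permutation tests used SciPy 1.17.1. The genes and the pathway and marker lists were chosen with earlier results of these data known. In each pathway list, genes past the threshold and otherwise up to 3 by mean FPKM could be named. The 5 nearest profiles are those of genes with a symbol. Outside this rule, RGMA, RGMB, ID4, SMAD7, TFRC, IL6, JAK2, HNF4A, SLC40A1, SPINT2 and some marker genes were named after their values were seen.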

Additional observations from a re-analysis of the deposited data

How the results depend on the processing

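HAMP in its 3 comparisons and TMPRSS6 after genistein kept their direction and side of the threshold under all 18 alternatives run for each. For HAMP against DMSO the direction was fixed by its entry, since HAMP was listed at 0 in DMSO, and only the threshold could be crossed. The number of the 10 genes called after genistein was 2 to 4 under these. After BMP6 it was 1 with a mean of at least 5 FPKM, with only the 2 groups compared and with the replicate block (1 to 3 without single libraries). Between the treatments it was 1 with only the 2 groups compared and with the replicate block (2 to 4 without single libraries). The cause was not tested.

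Pathway genes called after genistein (7) were 12 with median-of-ratios scaling, 13 with quantile normalization, 14 with only the 2 groups compared and 3 with the replicate block, and 2 to 14 without single libraries. After BMP6 (3) they were 5 with no filter, 1 with a mean of at least 5 FPKM, 7 and 6 with the 2 scalings, 5 without DMSO 1, genistein 2 and BMP6 1, and 0 in limma with only the 2 groups compared or with the replicate block (19 at an unadjusted p under 0.05 in each), and 0 to 15 without single libraries. Between the treatments (2) they were 5 and 6 with the 2 scalings, 6 without those 3 libraries, and 0 in limma with only the 2 groups compared or the replicate block (13 and 11 at an unadjusted p under 0.05), and 0 to 5 without single libraries.

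Of all genes, 1527 were called after genistein: 2395 with quantile normalization, 2616 with only the 2 groups compared, 414 with the replicate block, 2358 without the 3 libraries and 244 to 2615 without single ones. After BMP6, 106 were called: 184 with a pseudocount of 5, 38 with a mean of at least 5 FPKM, 382 with median-of-ratios scaling, 338 with quantile normalization, 173 with no trend, 13 with only the 2 groups compared, 4 with the replicate block, 477 without the 3 libraries and 5 to 1892 without single ones. Between the treatments, 176 were called: 417 and 424 with the 2 scalings, 81 with only the 2 groups compared, 7 with the replicate block, 657 without the 3 libraries and 48 to 540 without single ones. With median-of-ratios scaling, the median over all genes of the log2 difference went from 0.05 to -0.05 for genistein against DMSO and from 0.12 to -0.04 for genistein against BMP6, and turned no direction among the tested genes of the hepcidin group.

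Directions turned only for differences that had not passed: BMP4 after BMP6 was 0.25 without BMP6 1 and 0.38 without the 3 libraries, NEO1 after genistein was -0.0201 without the 3 libraries, and HFE after BMP6 was -0.0697 without DMSO 2. Without single libraries BMP4 after BMP6 ranged from -1.74 to 0.25 and HFE after BMP6 from -0.0697 to 0.1625. The 3 libraries left out together (DMSO 1, genistein 2 and BMP6 1) were chosen after seeing the data. For same-numbered libraries, r of deviations from group means was -0.247 to 0.286. This check cannot decide whether the numbers pair the libraries. Groups hold 2 or 3 libraries, and the deviations of the BMP6 pair mirror each other. With the replicate block BMP4 after genistein (adjusted p = 0.0521), TMPRSS6 between the treatments (0.155) and ATOH8 in both comparisons (0.107 and 0.0715) no longer passed. Among pathway genes the block also ended the calls of FST (0.0832), FURIN (0.103 and 0.141), IL6R (0.0698), SOCS3 (0.07), ID3 (0.168), ID2 (0.181) and FBXL5 (0.187 and 0.132).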

Other observations

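The libraries genistein 3 and BMP6 1, which carry different numbers and treatments, deviated together from their group means across tested genes (r = 0.594, a description over genes). BMP6 1 also held the lower level of HAMP, ATOH8, BMP4, ID1, ID3 and SMAD6 of the BMP6 pair, with SMAD6 at 8.43 and 77.8 FPKM in BMP6 1 and 2, and the higher level of IL6R and TFRC (922 and 158 FPKM). Summed over genes, BMP6 1 and 2 held 1704599 and 3105197 FPKM, and their median-of-ratios factors were 0.728 and 1.19. The part of this library-wide scale in these gaps was not tested.

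SPINT2, the gene of an inhibitor of matriptases, was listed at 0 FPKM with an OK status in all 8 libraries.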
